A study of Mus musculus with 14 samples.

Results

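The clustered histone genes are the protein-coding genes of the GENCODE M21 annotation (GRCm38) whose symbols begin with Hist1h, Hist2h, Hist3h or Hist4h. There were 67 of them among 21755 protein-coding genes. The Hist1 cluster on chromosome 13 held 54 members, the Hist2 cluster on chromosome 3 held 10, the Hist3 cluster on chromosome 11 held 2, and *Hist4h4* stood alone on chromosome 6. By histone type, 6 members encode linker histone H1, 18 encode H2A, 18 encode H2B, 12 encode H3 and 13 encode H4. Members less than 100 kb apart were joined into blocks, which gave 4 blocks in Hist1, of 121.8, 8.513, 233.4 and 1.079 kb, and blocks of 50.27 kb in Hist2 and 7.911 kb in Hist3.

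Clustered histone genes are small, mostly lack introns, and are transcribed mainly in S phase into mRNAs that end in a stem-loop instead of a poly(A) tail. Genes for H2A and H2B often stand head to head, so that a single stretch of DNA holds the promoters of both. In the testis some members have roles of their own: *Hist1h1t* encodes the linker histone H1t, and *Hist1h2ba* and *Hist1h2aa* encode the H2B and H2A variants TH2B and TH2A, which replace the somatic forms in male germ cells. PRDM9 normally places meiotic DNA double-strand breaks (DSBs) at sites that it binds, and mice that lack it form DSBs at other sites, many of them promoters.

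DSBs were mapped in whole testis by DMC1 ChIP-SSDS, which sequences the single strands of DNA recovered with DMC1, a recombinase that coats resected DSB ends. The control mice, *Hells* CTRL, were Hellsfl/Δ without a CRE transgene, were 5 weeks old and gave 2 testes per replicate. The *Hells* cKO mice were Hellsfl/Δ;Stra8-iCre, were 9 weeks old and gave 3 testes per replicate, so the effects of age and genotype cannot be told apart. Both groups share 1 deleted *Hells* allele and a C57BL/6N background with the *Prdm9* Dom2 allele. CRE under the *Stra8* promoter removes the floxed allele in male germ cells, and some *Hells* cKO spermatocytes still held HELLS protein. The authors merged the 2 replicates of each genotype, so there was 1 final peak list per genotype, of 11133 peaks in *Hells* CTRL and 17117 in *Hells* cKO, and neither a replicate spread nor a test between genotypes was possible. The strength of a peak is the score deposited by the authors, and according to the methods no scaling made it comparable between genotypes. Strengths are therefore given with their percentile within the same list, and how many reads a strength rests on is unknown. A peak was counted at a gene when its center, the midpoint of the interval, lay within 1 kb of any annotated transcription start of that gene.

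The start regions of H4 genes are shown because this type held the strongest *Hells* cKO peaks as well as members without any. The 150 bases before the start of the members with the 2 strongest peaks and of the 2 Hist1 H4 members without a peak are given from GRCm38.p6, each on the strand of its gene, with CpG dinucleotides in capitals.
Hist1h4j: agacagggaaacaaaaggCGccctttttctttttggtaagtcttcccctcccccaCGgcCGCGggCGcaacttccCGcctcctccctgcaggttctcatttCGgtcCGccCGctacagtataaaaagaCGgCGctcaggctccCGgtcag
Hist1h4k: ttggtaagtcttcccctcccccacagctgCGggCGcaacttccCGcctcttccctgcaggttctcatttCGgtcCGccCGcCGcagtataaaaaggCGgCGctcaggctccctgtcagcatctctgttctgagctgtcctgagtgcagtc
Hist1h4b: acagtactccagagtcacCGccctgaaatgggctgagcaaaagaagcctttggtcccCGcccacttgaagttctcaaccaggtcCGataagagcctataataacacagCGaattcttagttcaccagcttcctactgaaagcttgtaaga
Hist1h4d: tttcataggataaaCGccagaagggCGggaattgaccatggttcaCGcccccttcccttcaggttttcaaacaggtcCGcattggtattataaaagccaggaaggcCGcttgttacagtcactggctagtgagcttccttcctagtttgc
*Hist1h4j* (chr13:21734914-21735063, plus strand) held 12 CpG in these bases and *Hist1h4k* (chr13:21750506-21750655, minus strand) held 9. *Hist1h4b* (chr13:23756863-23757012, plus strand) held 4, and *Hist1h4d* (chr13:23581448-23581597, plus strand) held 5. The genes were picked by peak strength, so these counts do not compare H4 genes with and without a peak. Within 250 bp of the start, H4 members held 29 to 46 CpG, and both ends were members with a peak, *Hist1h4h* and *Hist1h4a*. *Hist1h4b*, *Hist1h4d* and *Hist2h4*, without a peak, held 31, 32 and 32. All 4 stretches precede genes for H4, the core histone that pairs with H3.

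The stretches between head-to-head H2A and H2B genes are shown because these are where 1 peak can serve 2 promoters. The word CCAAT, the core of the CCAAT box, is in capitals on either strand (CCAAT or ATTGG), and all are printed on the plus strand of GRCm38.p6. The first 3 belong to pairs with a *Hells* cKO peak within 1 kb of both genes and the last 2 to pairs without any.
Hist1h2an-Hist1h2bp: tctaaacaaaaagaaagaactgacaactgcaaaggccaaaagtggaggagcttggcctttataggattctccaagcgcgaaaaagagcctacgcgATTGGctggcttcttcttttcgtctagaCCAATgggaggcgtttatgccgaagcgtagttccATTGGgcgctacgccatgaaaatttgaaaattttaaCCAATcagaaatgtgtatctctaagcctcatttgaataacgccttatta
Hist1h2ac-Hist1h2bc: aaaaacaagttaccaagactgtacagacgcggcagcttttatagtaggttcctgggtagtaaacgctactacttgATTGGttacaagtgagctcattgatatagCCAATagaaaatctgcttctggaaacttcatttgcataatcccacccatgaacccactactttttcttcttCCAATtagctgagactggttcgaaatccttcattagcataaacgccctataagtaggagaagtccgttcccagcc
Hist1h2ba-Hist1h2aa: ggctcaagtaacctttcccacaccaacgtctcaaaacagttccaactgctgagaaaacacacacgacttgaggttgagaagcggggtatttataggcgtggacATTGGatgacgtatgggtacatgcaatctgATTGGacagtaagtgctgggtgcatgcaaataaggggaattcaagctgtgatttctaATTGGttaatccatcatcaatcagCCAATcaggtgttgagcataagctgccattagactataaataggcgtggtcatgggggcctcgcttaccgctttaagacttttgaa
Hist1h2ae-Hist1h2bg: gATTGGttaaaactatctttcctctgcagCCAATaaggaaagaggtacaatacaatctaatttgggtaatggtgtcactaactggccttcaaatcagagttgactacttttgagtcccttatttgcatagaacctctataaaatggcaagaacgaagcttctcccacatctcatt
Hist1h2bf-Hist1h2ad: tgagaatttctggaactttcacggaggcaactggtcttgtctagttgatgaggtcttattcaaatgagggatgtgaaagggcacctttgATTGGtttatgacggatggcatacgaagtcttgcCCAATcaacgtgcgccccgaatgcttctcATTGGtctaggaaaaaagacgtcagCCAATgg
They lie at chr13:21787219-21787460, chr13:23683949-23684198, chr13:23934157-23934456 (the first 300 of 305 bases), chr13:23571221-23571395 and chr13:23574197-23574380. The word occurred 4, 3 and 4 times in the pairs with a peak and 2 and 4 times in the pairs without. CpG dinucleotides numbered 11, 6 and 8 in the former and 1 and 7 in the latter.

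In *Hells* cKO, 40 of 67 members (59.70%, exact Clopper-Pearson 95% confidence interval (CI) 47.00 to 71.51%) had a peak within 1 kb, against 45.6% of all protein-coding genes (9925 of 21755). In *Hells* CTRL, 0 of 67 members had a peak within 1 kb, against 2.70% of all protein-coding genes (587 genes). Taking 3 counts as the limit for 0, which is not an exact interval, this allows a share of up to 4.48%. When every gene was reduced to 1 start, 1.08% of all protein-coding genes had a *Hells* CTRL peak. Both shares of all genes lie below that limit, so the 0 is no result about the members. The intervals cover counting error only, and neighbouring members that share a peak are not independent, so they are narrower than the data warrant. The members also differ from other genes in annotation, since 63 of them have a single annotated start, as do only 22.01% of protein-coding genes, whose median is 3 starts. Among the 4789 protein-coding genes with a single start, 22.15% had a *Hells* cKO peak within 1 kb, and among the 63 members of that kind 38 had one (60.32%). Those 4789 genes are a subset that was not matched to the members in other ways. When every gene was reduced to 1 start, 40 members had a peak, against 42.12% of all protein-coding genes. The position of the members above all genes depended on the reach and on the sharing of peaks. Within 500 bp, 26 members (38.81%) had a *Hells* cKO peak, against 42.36% of all protein-coding genes and 18.42% of those with a single start. When each peak within 1 kb was counted only for its nearest gene, 28 members had one (41.79%), against 40.78% of all protein-coding genes.

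**Figure D1:**
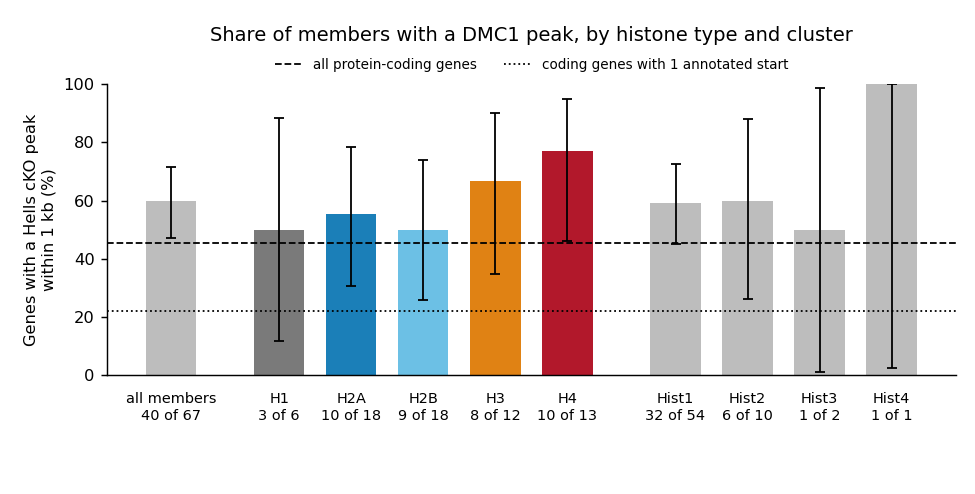
Share of clustered histone genes (percent, vertical axis) with a Hells cKO DMC1 peak center within 1 kb of a start, for all members, by histone type and by cluster. Error bars are exact 95% intervals for counting error, the dashed line marks all protein-coding genes (45.6%) and the dotted line those with 1 annotated start (22.15%). The latter are a subset of genes, and with every gene reduced to 1 start the share of all protein-coding genes was 42.12%. H4 had the highest share of the types (10 of 13) and H1 and H2B the lowest (3 of 6 and 9 of 18), with intervals that overlap widely.

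The 40 members were served by 28 distinct peaks. Of these, 17 had 1 member within 1 kb, 10 had 2 and 1 had 3, so 23 members shared a peak. Peaks in reach of more than 1 protein-coding gene made up 39.29% of the 28, against 11.92% of the 9303 *Hells* cKO peaks near any protein-coding start. Members stand close together, and this contrast was not corrected for the spacing of genes. None of the 28 peaks had a protein-coding gene other than a member in reach. The peaks were 1294 to 3962 bp wide (median 2149 bp, against 2092 bp for all *Hells* cKO peaks near protein-coding starts).

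Strengths ranged from 17 to 205, with a median of 50.5 (quartiles 27 and 85.25) and a median percentile of 68.85 within the list. All *Hells* cKO peaks near protein-coding starts had a median strength of 45 (quartiles 25 and 91) and a median percentile of 64.89, and the whole list had a median strength of 31. At or above that median were 19 of the 28 peaks.

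Within 1 kb, H4 genes had the highest share with a peak of the 5 histone types, an order that was not tested. At a reach of 2 kb the counts were 10 of 13 H4, 9 of 12 H3, 13 of 18 H2B, 12 of 18 H2A and 4 of 6 H1 members. Of 13 H4 members, 10 had a *Hells* cKO peak (76.92%, CI 46.19 to 94.96%), and an H4 gene was the nearest member for 9 of the 28 peaks. Those 9 peaks had strengths of 21 to 205 with a median of 86. Of the 5 strongest of the 28 peaks, 3 had an H4 gene nearest to the center. *Hist1h4j* had the strongest, of 205 (percentile 97.1, chr13:21734179-21736278), centered 164 bp downstream of its start. *Hist1h4k*, the next H4 gene along the chromosome, had the next, of 178 (percentile 95.8, chr13:21749299-21751664), centered 24 bp downstream of its start. *Hist1h4a* had a peak of 113 (percentile 88.8), centered 80 bp upstream. These 3 genes encode the same kind of core histone as *Hist1h4c*, whose peak of 21 (percentile 32.5) was the weakest at an H4 gene. Between these values stood *Hist1h4f* at 86, *Hist1h4h* at 51, *Hist1h4n* at 50 and *Hist1h4m* at 25. *Hist4h4*, the only member of its cluster, had a peak of 101 (percentile 86.7, chr6:136802897-136805114), centered 410 bp downstream of its start. No peak was within 1 kb of *Hist1h4b*, *Hist1h4d* or *Hist2h4*, whose nearest *Hells* cKO centers were 4297, 4078 and 5754 bp away.

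**Figure D2:**
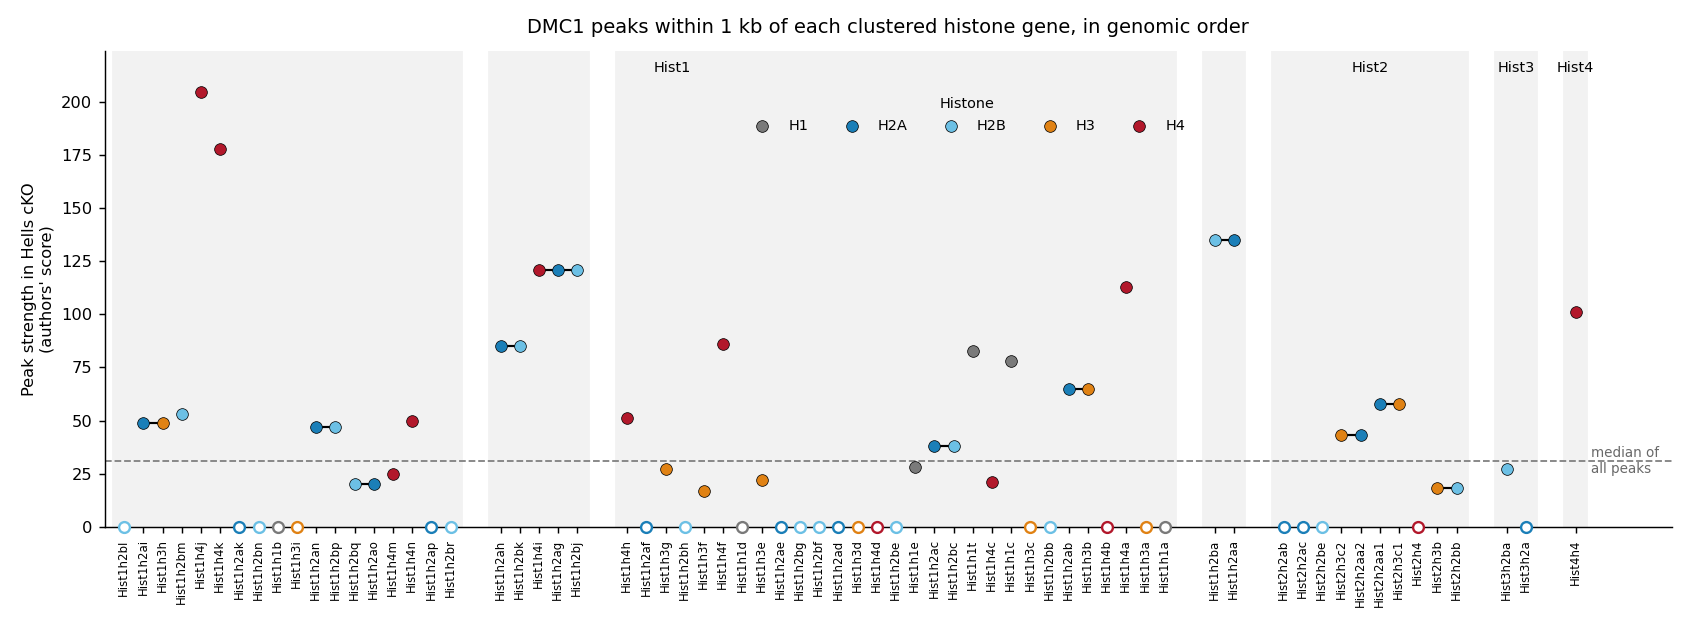
Strength of the Hells cKO peak (authors' score, vertical axis) within 1 kb of each clustered histone gene, in genomic order within the shaded blocks and colored by histone type. Black lines join members that share a peak, open circles at 0 mark members without a peak, and the dashed line is the median of all Hells cKO peaks (31). Hist1h4j (205) and Hist1h4k (178) stand above all other members, and runs of open circles mark the stretches without peaks.

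H3 genes, which encode the partner of H4 in the nucleosome core, had peaks of lower strength. A peak was found at 8 of 12 H3 members (66.67%, CI 34.89 to 90.08%), and each of these 8 peaks had an H3 gene as its nearest member. Their strengths were 17 to 65 with a median of 35, and 5 of the 9 peaks nearest to H4 genes were stronger than every one of them. This order is a description of 1 merged list, and with 8 and 9 peaks it was not tested. The strongest was shared by *Hist1h3b* and *Hist1h2ab* (65), and the weakest were at *Hist1h3f* (17) and at *Hist2h3b* with *Hist2h2bb* (18). *Hist1h3h* shared a peak of 49 with *Hist1h2ai*, *Hist1h3g* had 27 and *Hist1h3e* had 22. *Hist1h3a*, *Hist1h3c*, *Hist1h3d* and *Hist1h3i* had none, with nearest centers 1076, 6241, 9913 and 4111 bp away.

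H2A and H2B genes, which encode the other pair of core histones, had peaks in 10 of 18 (55.56%, CI 30.76 to 78.47%) and 9 of 18 cases (50%, CI 26.02 to 73.98%). Within 500 bp these counts were 3 and 6, while 2 of 6 H1, 7 of 12 H3 and 8 of 13 H4 members had a peak at that reach. All 10 H2A members with a peak shared it with another histone gene, whereas among H2B members *Hist1h2bm* (53) and *Hist3h2ba* (27) had a peak of their own. An H2B gene was the nearest member for 7 peaks, with strengths of 20 to 135 and a median of 47. An H2A gene was the nearest for a single peak, the one of strength 121 between *Hist1h4i* and *Hist1h2ag*.

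The 11 shared peaks fell into 4 arrangements. An H2A and an H2B gene shared 5 peaks, with strengths of 20 to 135, and an H2A and an H3 gene shared 4, with strengths of 43 to 65. *Hist2h3b* shared a peak of 18 with *Hist2h2bb*. The only peak in reach of 3 members was that of *Hist1h4i*, *Hist1h2ag* and *Hist1h2bj*, with a strength of 121 (percentile 90.2, chr13:22040365-22044326). It was also the widest, at 3962 bp, and its center lay 599 bp from the start of *Hist1h2ag*, past the end of that gene, 869 bp from *Hist1h2bj* and 983 bp from *Hist1h4i*. Just 9 CpG lay within 250 bp of that center. In the 4 peaks shared by H2A and H3 genes, the center lay 302 to 452 bp upstream of the H3 start and 736 to 914 bp downstream of the H2A start, past the end of the H2A gene. Shared peaks had a median strength of 49 and a median of 27 CpG at their center (6 to 37), and the 17 peaks with 1 member had a median strength of 51 and 43 CpG (13 to 48).

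Head-to-head H2A and H2B genes made up 12 pairs, with 175 to 305 bases between the starts, and held 24 of the 36 H2A and H2B members. A *Hells* cKO peak was within 1 kb of both genes in 6 pairs, of 1 gene in 1 pair and of neither in 5 pairs. The pairs with a peak at both were *Hist1h2an* with *Hist1h2bp* (47), *Hist1h2bq* with *Hist1h2ao* (20), *Hist1h2ah* with *Hist1h2bk* (85), *Hist1h2ag* with *Hist1h2bj* (121), *Hist1h2ac* with *Hist1h2bc* (38) and *Hist1h2ba* with *Hist1h2aa* (135). In 5 of these 6 pairs the center was nearer to the H2B start, with *Hist1h2ag* and *Hist1h2bj* as the exception. Taken from the outermost starts, the center lay between the genes only in the pair of *Hist1h2ac* and *Hist1h2bc*. *Hist1h2bp* has 2 annotated starts, and from the one used for its CpG count the center also lay between its start and that of *Hist1h2an*. The pairs without a peak were *Hist1h2ak* with *Hist1h2bn*, *Hist1h2ap* with *Hist1h2br*, *Hist1h2ae* with *Hist1h2bg*, *Hist1h2bf* with *Hist1h2ad*, and *Hist2h2ac* with *Hist2h2be*. Of *Hist1h2bl* and *Hist1h2ai*, only the latter was within 1 kb of a center, that of the peak shared with *Hist1h3h*. The median number of CpG within 250 bp of the start was 35 for the genes of pairs with a peak at both and 31.5 for those with none.

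**Figure D3:**
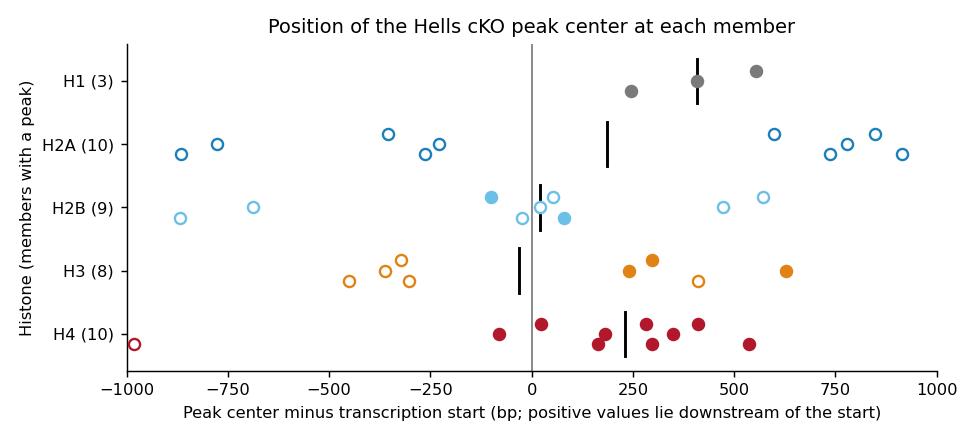
Signed distance in bp from the start of each of the 40 members with a Hells cKO peak to the center of that peak (horizontal axis, positive downstream), by histone type. Filled circles are members with a peak of their own, open circles members that share it, and black bars the median of each type. The H4 centers, with the exception of the shared one at -983 bp, lie between -80 and 536 bp, while the nearest H2A center lies 228 bp from its start.

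The centers lay downstream of the start in 25 of the 40 members, and inside the gene in 19 of them, past its end in 6 and upstream of the start in 15. Measured from the nearest member start, the 28 centers had a median position of 243 bp downstream and a median distance of 300 bp. Over all *Hells* cKO peaks near protein-coding starts the same values were 86 and 140 bp. Those are measured from the nearest of all annotated starts, a median of 3 per gene, while 63 members have a single start. More starts can only shorten the distance of a given peak, but they also bring more peaks into reach. The values are therefore not matched, and the direction of this effect was not tested. Of the 10 H4 members with a peak, 8 had its center inside the gene, as had all 3 H1 members. The members just inside the limit of 1 kb were *Hist1h4i* at 983 bp and *Hist1h2ai* at 914 bp. Those just outside it were *Hist1h3a* at 1076 bp and *Hist1h2be* at 1188 bp.

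The testis genes were among the members with stronger peaks. *Hist1h2ba* and *Hist1h2aa*, which stand apart from the rest of Hist1 in a block of their own, shared the peak of strength 135 (percentile 91.9, chr13:23932784-23934585), the strongest after those of *Hist1h4j* and *Hist1h4k*. It was centered 472 bp downstream of the *Hist1h2ba* start, past the end of that gene, and 778 bp upstream of the *Hist1h2aa* start. *Hist1h1t* had a peak of 83 (percentile 82.3, chr13:23695222-23697225), centered 409 bp downstream of its start, inside the gene. Their start regions held 21, 22 and 18 CpG, below the median of the members. Among the other H1 members, which encode linker histones of somatic cells, *Hist1h1c* had a peak of 78 (percentile 80.8) and *Hist1h1e* one of 28 (percentile 45.7). *Hist1h1a*, *Hist1h1b* and *Hist1h1d* had none within 1 kb, with nearest centers 2356, 6856 and 1897 bp away. The annotated start of *Hist1h1d* lies 1828 bp from its coding start, and the latter was 3725 bp from the nearest center.

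By cluster, the shares were 32 of 54 in Hist1 (59.26%, CI 45.03 to 72.43%), 6 of 10 in Hist2 (60%, CI 26.24 to 87.84%), 1 of 2 in Hist3 and 1 of 1 in Hist4. Within Hist1 the 4 blocks differed in their counts. The block from *Hist1h2bl* to *Hist1h2br* had peaks at 11 of 18 members, that from *Hist1h2ah* to *Hist1h2bj* at 5 of 5, that from *Hist1h4h* to *Hist1h1a* at 14 of 29, and the pair of *Hist1h2ba* and *Hist1h2aa* at 2 of 2. In Hist2, 3 peaks served 6 members in pairs of an H3 gene with an H2A or H2B gene. *Hist2h3c1* and *Hist2h2aa1* shared one of 58, *Hist2h3c2* and *Hist2h2aa2* one of 43, and *Hist2h3b* and *Hist2h2bb* one of 18. *Hist2h2ab*, *Hist2h2ac* and *Hist2h2be*, a group of H2A and H2B genes at one end of the cluster, had their nearest *Hells* cKO centers 19564, 18549 and 18310 bp away, farther than any other member. In Hist3, *Hist3h2ba* had a peak of 27 (percentile 44.1), and *Hist3h2a*, another H2A gene, lay 5594 bp from the nearest center.

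Of the 27 members without a *Hells* cKO peak within 1 kb, 8 had a center 1 to 2 kb away and 13 had none within 5 kb. The Hist1 members farthest from a center were the neighbours *Hist1h2ae*, *Hist1h2bg*, *Hist1h2bf*, *Hist1h2ad* and *Hist1h3d*, whose nearest centers were 9149, 9325, 11480, 11295 and 9913 bp away. The remaining H2A genes without a peak were *Hist1h2af* (1756 bp), *Hist1h2ak* (3346 bp) and *Hist1h2ap* (1607 bp). The remaining H2B genes without one were *Hist1h2bl* (1193 bp), *Hist1h2bh* (1288 bp), *Hist1h2be* (1188 bp), *Hist1h2br* (1843 bp), *Hist1h2bn* (3642 bp) and *Hist1h2bb* (5171 bp). For *Hist1h2be* the annotated transcripts begin far from the coding sequence, and a *Hells* cKO peak of strength 24 (chr13:23584949-23586404) was centered 280 bp from its coding start. When distances were taken from coding starts instead, a choice made after seeing the data, 40 members again had a peak, with *Hist1h2be* gained and *Hist1h4i* lost, against 32.02% of all protein-coding genes. The only other *Hells* cKO peak inside a block that served no member had a strength of 15 (percentile 16.9, chr13:21819518-21821119) and lay 8572 bp from the nearest member start.

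A single *Hells* CTRL peak was centered inside the blocks, which span 425.8 kb in all. This is 2.349 peaks per Mb, against 4.227 per Mb over the chromosomes of the list, so that 1 peak is no result about the clusters. In *Hells* cKO, 29 peaks were centered inside the blocks, or 68.11 per Mb against 6.499. The blocks were drawn around the members, so they are dense in starts, and this contrast was not corrected for gene density. When each peak within 1 kb was counted only for its nearest gene, 41.79% of members had one, against 40.78% of all protein-coding genes. The *Hells* CTRL peak had a strength of 54 (percentile 44.5 of its list, chr13:21719336-21720877) and lay 1938 bp from the start of *Hist1h2bm*. A *Hells* cKO center, that of the *Hist1h2bm* peak, lay 1837 bp from it. The median distance from a member to the nearest *Hells* CTRL center was 138 kb, with a range of 1.94 to 359.1 kb, against a median of 66.11 kb over all protein-coding genes. The corresponding medians for *Hells* cKO were 0.778 kb and 5.536 kb, likewise without correction for gene density.

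CpG dinucleotides counted within 250 bp of the start had a median of 34 in the members, against 26 in all protein-coding genes, each counted at the start of 1 principal transcript. Members with a *Hells* cKO peak had a median of 36.5 (9 to 69) and those without had 32 (1 to 43, with the lowest at the distant annotated start of *Hist1h1d*). The lowest value with a peak was at *Hist1h3f*, whose annotated start lies 433 bp from its coding start. Its peak held 48 CpG within 250 bp of the center. Over all protein-coding genes the share with a *Hells* cKO peak was 7.256% with 0 to 9 CpG and 74.69% with 50 or more. Only 2 and 4 members fell in the classes of 0 to 9 and 10 to 19 CpG, with 1 peak in each. Among those with 20 to 29 CpG, 8 of 13 had a peak (CI 31.58 to 86.14%), against 56.56% of protein-coding genes in that class. Among members with 30 to 39 CpG, 14 of 30 had a peak (CI 28.34 to 65.67%), against 69.43% of protein-coding genes in that class. Among those with 40 to 49 CpG, 12 of 14 had one (CI 57.19 to 98.22%), against 73.54%. The 4 members with 50 or more, *Hist2h2aa1*, *Hist2h2aa2*, *Hist2h3c1* and *Hist2h3c2*, all had a peak. The shares of protein-coding genes count a peak at any annotated start, with a median of 3 starts, while 63 members have a single start. Members and other genes of a class are therefore not matched for starts, and no share matched for starts was computed by class. Over all classes, taking 1 start per gene gave 42.12% of protein-coding genes with a peak, against 45.62% with any start. Whether members of a class have fewer peaks than other genes was not tested. The intervals also treat members that share a peak as independent. Within 250 bp of the peak centers the members' peaks held a median of 32 CpG (6 to 48), against 41 for all *Hells* cKO peaks near protein-coding starts. Across the 28 peaks strength and this number had a Spearman rho of -0.087, against 0.361 across the 9303 peaks. Peaks are not independent replicates, and both values are descriptions of the list.

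**Figure D4:**
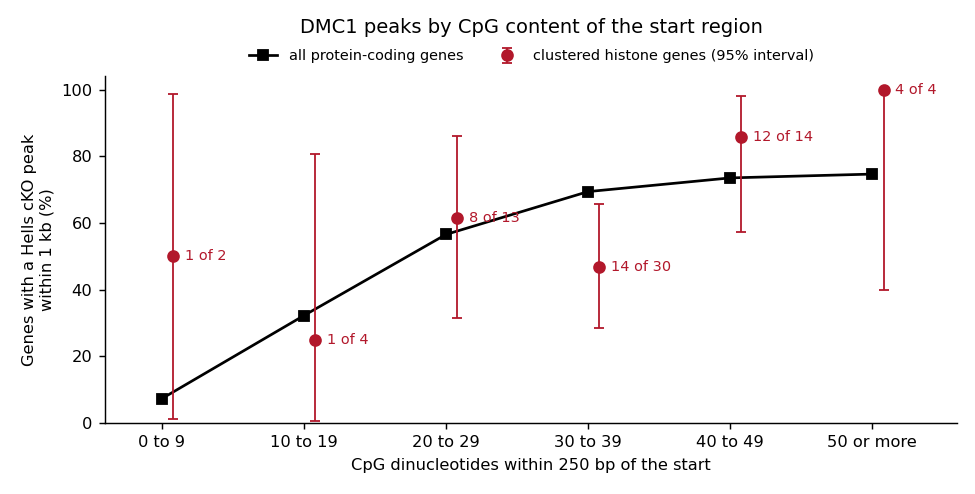
Percent of genes with a Hells cKO peak within 1 kb (vertical axis) by the CpG count within 250 bp of the start (horizontal axis). Black squares are all protein-coding genes, and red circles are the clustered histone genes with their counts and exact 95% intervals. The squares go from 7.256 to 74.69%, and the members with 30 to 39 CpG (14 of 30) lie below the square of their class (69.43%). The squares count peaks at any annotated start and are not matched to the members, most of which have a single start.

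Promoter words typical of histone genes were frequent in the members and were found with and without peaks. In the 250 bases before the start, on either strand, CCAAT was present in 54 members (80.6%, against 35.58% of all protein-coding genes). TATAAA, the core of the TATA box, was present in 34 (50.75%, against 11.39%). ATTTGCAT, the octamer known from H2B promoters, was present in 15 (22.39%, against 1.485%), of which 8 were H2B and 7 H2A genes. Head-to-head H2A and H2B genes have 175 to 305 bases between starts, so their windows overlap and 1 word can count for both. The stretches of *Hist1h2ac* with *Hist1h2bc*, *Hist1h2ba* with *Hist1h2aa* and *Hist1h2ae* with *Hist1h2bg* each held 1 ATTTGCAT, counted for both genes. The counts of members with a word are therefore not independent. By type, CCAAT was present in 5 of 6 H1, 18 of 18 H2A, 18 of 18 H2B, 9 of 12 H3 and 4 of 13 H4 members. It was found in 29 of the 40 members with a *Hells* cKO peak and in 25 of the 27 without, a split that mixes types. The counts were 18 and 16 for TATAAA and 9 and 6 for ATTTGCAT. A match only says that these letters are in the window.

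Some members are near-identical copies, and only uniquely mapped reads were kept, so peaks in copied sequence can be missed or placed on 1 copy. As a measure, words of 50 bases, the length of the trimmed reads, were counted within 500 bp of each start, and a median of 70.69% of them occurred once in the genome. Fewer than 10% did so in 8 members, namely *Hist1h2bq*, *Hist1h2ao*, *Hist1h4m*, *Hist1h4n*, *Hist1h2ap*, *Hist1h2br*, *Hist2h3c1* and *Hist2h3c2*. The share was 0 to 5.777% in all 8, and their values are uncertain. Of the 6 in Hist1, *Hist1h4m* and *Hist1h4n* had peaks of 25 and 50, *Hist1h2bq* and *Hist1h2ao* shared one of 20, and *Hist1h2ap* and *Hist1h2br* had none. Of the 55 members in which more than 50% of the words occurred once, 32 had a *Hells* cKO peak (58.18%), and of the 12 others 8 had one. At the 2 strongest peaks the share was 72.48% (*Hist1h4j*) and 71.43% (*Hist1h4k*). The part of copied sequence in the counts was otherwise not tested.

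Histone genes outside the clusters mostly encode variants made throughout the cell cycle or in germ cells. Of 14 in a list chosen with earlier results of these data known, 8 had a *Hells* cKO peak (57.14%, CI 28.86 to 82.34%, against 45.6% of all protein-coding genes) and 0 had a *Hells* CTRL peak. These genes have a median of 2 annotated starts, and of the 6 with a single start 2 had a *Hells* cKO peak. The strengths of these peaks were 33 to 154, with a median of 122.5. They included *H2afz* (154) for the variant H2A.Z, *H2afx* (128) for H2A.X and *Cenpa* (110) for the centromeric H3. The 2 genes for H3.3 differed, with 147 at *H3f3a* and 43 (percentile 63.2) at *H3f3b*. The weakest was at *H1fx* (33), a gene for a linker histone. The germ-cell linker histone genes *H1foo*, *H1fnt* and *Hils1* had their nearest *Hells* cKO centers 47558, 75883 and 42514 bp away. Of 17 genes for factors of histone gene transcription and histone mRNA processing (19 listed in the same way, 17 found in the annotation), 15 had a *Hells* cKO peak (88.24%, CI 63.56 to 98.54%, against 45.6% of all protein-coding genes). They have a median of 5 annotated starts, up to 14, and only 2 have a single start, so their share cannot be read against that of the members. The peaks had strengths of 20 to 237 and a median of 98. Among them were *Npat* (205), the coactivator of histone gene transcription at the clusters, *Slbp* (98), which binds the stem-loop of histone mRNAs, *Casp8ap2* (115), which encodes the histone locus body protein FLASH, and *Cpsf2* (237), a subunit of the complex that cleaves histone pre-mRNAs. *Hinfp*, the factor known for H4 promoters, had a peak of 20. In *Hells* CTRL, *Cpsf3*, which encodes the endonuclease of that complex, was the single gene of this list with a peak, of strength 54 (percentile 44.5), centered 249 bp upstream of a start.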

How the data were processed

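DMC1 ChIP-SSDS peak lists of *Hells* CTRL and *Hells* cKO testes were analysed, while the 5hMeDIP libraries of the series were not analysed here. Before mapping to GRCm38/mm10, reads were cut by the authors to 50 bp and filtered at a Phred score of 28, and duplicates and reads with several map positions were removed. The authors then called peaks with MACS, selected the top peaks of the pooled replicates by the Irreproducible Discovery Rate method, and deposited 1 list per genotype. The deposited strength is a score of the authors for each peak, which their methods describe as a fragment count normalized to local background and library size. All strengths were whole numbers. The lists hold no read counts, so the depth per sample and the precision it gives are unknown.

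Members were the genes with the 4 symbol prefixes. Start sites came from GENCODE M21 and sequence from GRCm38.p6, and all 40 combinations of list and chromosome fitted its lengths. The percentile of a strength is its mean rank within the list. Shares have exact (Clopper-Pearson) intervals, except that the limit for 0 members in *Hells* CTRL is 3 counts of the total. No test was made because each genotype is 1 list. The members, gene lists and settings were chosen with earlier results of these data known. The genes named were those of the 5 strongest *Hells* cKO peaks, of peaks with 3 or more members, of Hist2, Hist3 and Hist4, all H1 and testis genes, all members without a *Hells* cKO peak, and the 2 members nearest to the limit on each side. Other members were named to give each histone type in full, after their values were seen. The printed stretches between H2A and H2B genes are examples also chosen with the peaks known. Alternatives were other reaches, interval edges, other start sites, stronger peaks, other percentiles, nearest members only and members of unique sequence. The code was tested on simulated peaks. The tools were numba 0.67.0, matplotlib 3.10.9, scipy 1.17.1, pandas 2.3.3 and numpy 2.4.6 under Python 3.11.15.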

Additional observations from a re-analysis of the deposited data

How the results depend on the processing

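No paired analysis was possible because the replicates of each genotype were merged before the lists were made, which also prevented leaving out a replicate. Across 13 alternative settings, 57 recomputed values stayed within the limits and 6 did not. The limits were 1.5 times the main count, or the binomial 95% interval of the main median. With protein-coding transcripts only, the 5 prime end of the gene record or 1 start per gene, the values of the members repeated the main ones. This was nearly preset, since 63 members have a single annotated start. The shares of all protein-coding genes with a *Hells* cKO peak in these settings were, in the same order, 44.58, 41.23 and 42.12%. The count of peaks whose nearest coding start is a member was fixed at 28, as no other protein-coding gene was in reach. The number 57 is therefore not a measure of stability. With a reach of 500 bp, 26 members had a *Hells* cKO peak, 21 of them in Hist1 and 3 in Hist2, and 6 members shared one. With a reach of 2 kb, 38 members shared a peak and 1 member had a *Hells* CTRL peak. With that reach the number with a *Hells* cKO peak was 48 (against 46.82% of all protein-coding genes), served by the same number of peaks as before, 28. The cause was not tested, beyond the construction of these settings, which count closer or farther centers. With distances from the interval edges 46 members had a *Hells* cKO peak and 0 had a *Hells* CTRL peak, against 46.79% and 4.339% of all protein-coding genes. With peaks at or above the median of their list 29 and 0 did, against 31.31% and 1.186%. Within the limits but not small were the changes to 34 members sharing a peak, from 23, with interval edges, to 28 members with a peak when each peak was counted for its nearest member, and to a median percentile of 54.57, from 68.82, when ranks were taken among peaks near protein-coding starts. The median strength of the members' peaks stayed between 50 and 51, except among the stronger peaks, where it was 78. With coding starts, added after seeing the data, the count was again 40, with *Hist1h2be* gained and *Hist1h4i* lost. With 1 start per gene, also added then, it was 40 too, which was nearly preset. Depth limits these values in a way that cannot be measured here, since the lists carry no read counts.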
